A study of Mus musculus with 8 samples.

Results

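The 9 genes described here, Hlf, Mecom, Meis1, Prdm16, Gata2, Runx1, Erg, Tal1 and Gfi1b, encode transcription factors known as regulators of haematopoietic stem cells (HSCs), the marrow cells that give rise to every blood lineage. They were chosen by name, with no measured value in the rule, and all 9 were found among the 22050 genes that had an mRNA model in the tables. RNA was read in 8 libraries of HSCs from C57BL/6 mouse bone marrow, an inbred strain, with 4 libraries at 4 weeks of age and 4 at postnatal day 5 (P5). Cells had been sorted by flow cytometry on CD150, EPCR and the absence of CD48 and lineage markers, at 100 cells per library. The labels name no genotype, transgene or treatment for either age, and give no sex. They do not say that libraries of 1 age came from separate animals, so the p-values measure the spread between these libraries, which may in part be technical.

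Transcription factors of this kind bind enhancers and promoters together rather than alone. In mouse and human blood progenitors, Gata2, Runx1, Erg and Tal1 occupy shared sites with Lyl1, Lmo2 and Fli1, a group known as the heptad. Hlf, Mecom, Meis1 and Prdm16 are needed for the upkeep of stem cells in the mouse, while Gfi1b is a repressor that restrains stem cell division and is required for red cell and platelet production.

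The 4-week libraries held 5775130 to 7212446 exon reads and the P5 libraries 6142760 to 7470777. Introns took 66.9% to 68.7% of gene reads at 4 weeks and 60.1% to 68.2% at P5, where replicate 1 stood lowest and the other P5 libraries held at least 66.8%. Reads of Y-linked genes were plentiful in all libraries except P5 replicates 1 and 3, which had 2 and 0, so libraries without such reads stood at P5 alone. The P5 libraries thus did not all come from the same animal. Sex, as read from these genes, was in part confounded with age. Of the sort, 6 genes known from the HSC surface or from HSC reporters summed to 1376 to 1646 CPM at 4 weeks and to 1672 to 1877 CPM at P5, where CPM is the number of exon reads relative to the scaled library size. The sum hides opposite changes by edgeR, with Ly6a higher at 4 weeks (log2 1.53) and Ctnnal1 (-1.13) and Fgd5 (-0.60) lower. Most of it was Kit, at 1001 CPM at 4 weeks and 1012 CPM at P5. Slamf1 (CD150) was at 36.6 and 33.8 CPM and Procr (EPCR) at 57.1 and 55.0 CPM. Neither gene of the sort passed (adjusted p 0.618 and 0.825 by edgeR). Pax5 of B cells and Cd3e and Cd3g of T cells were at 0 exon reads in all 8 libraries. Pax5 had enough intron reads to be tested on them and did not pass (log2 -0.99, adjusted p 0.141 by edgeR). Summed markers of B cells and of T cells were lower at 4 weeks without overlap. The 6 B cell genes, mostly Cd79b, were at 20.9 to 26.1 CPM against 34.1 to 51.7 CPM at P5. The 4 T cell genes, mostly Cd4, were at 6.14 ± 1.37 CPM against 15.6 ± 3.87 CPM at P5 (SD, n = 4 each). Summed erythroid markers were at 95.0 to 161 CPM at 4 weeks and 584 to 922 CPM at P5, with most of it from the globin gene Hbb-bt. Alas2 was at 0 exon reads throughout. The highest Klf1 of all was in 4-week replicate 3, at 10.9 CPM, against at most 0.862 CPM in the other 4-week libraries and 0.818 CPM at P5. Summed myeloid markers were at 29.3 to 38.9 CPM in 4-week libraries. They were at 30.0 to 37.9 CPM in P5 libraries other than replicate 2, which had 201 CPM. Most of the 4-week sum was Prtn3, whose change did not pass the edgeR test (adjusted p 0.966). That sum too hides opposite changes by edgeR, with S100a8 higher at 4 weeks (log2 7.05) and Mpo (-1.91) and Csf1r (-3.57) lower. S100a8 and S100a9 had 64 and 59 exon reads at 4 weeks and 0 at P5.

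All 9 factors were expressed at both ages, from Hlf at the top to Prdm16 and Gfi1b at the low end. Levels of different genes are compared as exon CPM per kb of exon. Hlf, a PAR bZIP factor whose messenger RNA marks HSCs, was highest, at 216 ± 19.9 CPM per kb at 4 weeks and 242 ± 16.0 at P5 (SD, n = 4 each). Over the 8 libraries it stood at percentile 99.0 of the 12235 genes tested. Meis1, a homeodomain partner of Hox proteins, followed with 99.7 ± 7.58 CPM per kb at 4 weeks and 88.7 ± 4.63 at P5. At 4 weeks Gata2 (71.3 CPM per kb), Erg (66.5), Runx1 (65.6) and Mecom (63.2) came next, and each overlapped its neighbour in that order across libraries. At P5 the same genes ran from Mecom at 80.8 CPM per kb through Gata2 at 69.8 and Runx1 at 62.4 to Erg at 60.7, again with overlap between neighbours, and Meis1 overlapped Mecom. Tal1 was lower, at 40.8 ± 2.91 CPM per kb at 4 weeks and 37.5 ± 3.98 at P5.

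The low end of that order held Prdm16 and Gfi1b, which exchanged places. At 4 weeks Gfi1b stood at 19.1 ± 3.51 CPM per kb and Prdm16 at 15.4 ± 1.67, and their libraries overlapped. At P5 Prdm16 stood at 16.0 ± 1.90 CPM per kb and Gfi1b at 7.54 ± 0.896, without overlap. Both lay near the middle of all tested genes over the 8 libraries, at percentile 59.9 for Prdm16 and 53.9 for Gfi1b, where the median gene had 11.9 CPM per kb. The level of Erg rests on reads that map to more than 1 place: the gene is listed under 2 near-identical rows, summed here, and it fell to 2.24 CPM per kb when only uniquely mapped reads were used.

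**Figure D1:**
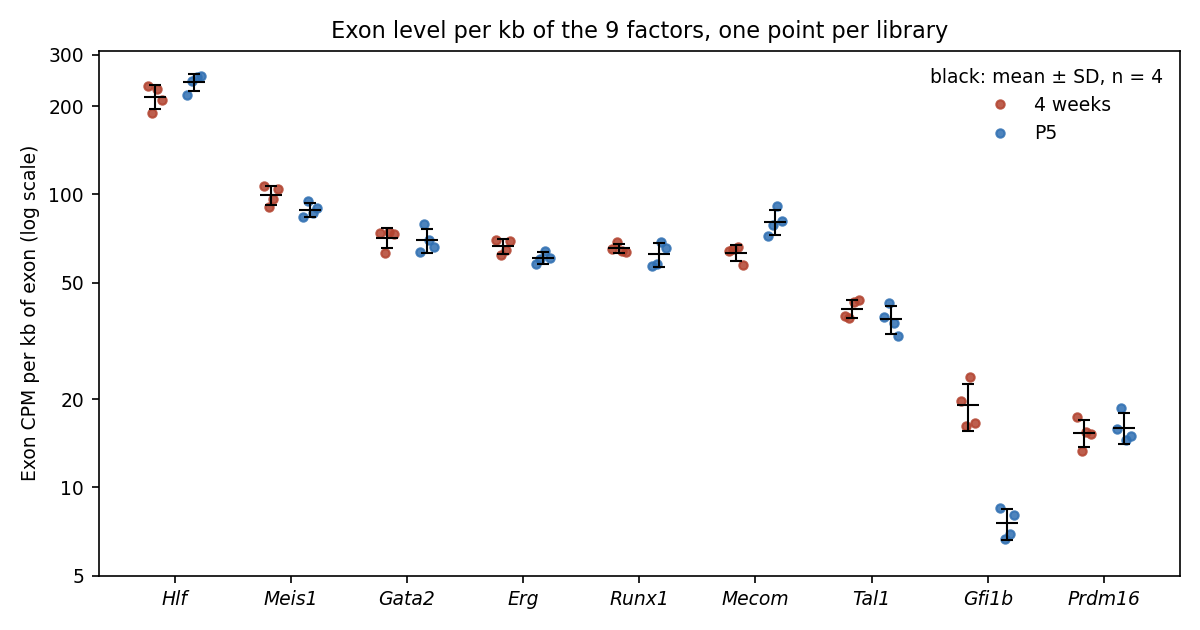
Exon CPM per kb of exon (log scale) of the 9 factors, in the order of their 4-week means, with 1 point per library, 4 weeks in red and P5 in blue; black marks are means ± SD. The 4-week and P5 points of Gfi1b and of Mecom do not overlap, and those of the other 7 factors do.

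Between the ages, Gfi1b was 2.52-fold higher at 4 weeks and Mecom was lower, at 0.782 of its P5 level, while the other 7 factors did not pass the test. Age was tested with edgeR's quasi-likelihood test across all genes with Benjamini-Hochberg adjustment at 0.05. Of the 9 factors 2 were called, beside 16.5% of all tested genes. By direction 1 was higher, where 8.55% of all genes were, and 1 was lower, where 7.99% were. Both called factors, and no other, had libraries that did not overlap between the ages, as 21.2% of all genes did (11.2% with 4 weeks above P5). With 9 genes these shares lie near the background, so the count says nothing particular about the group. The median log2 fold change was 0.071 for the 9 factors and 0.0042 for all genes, and the median size, regardless of sign, was 0.13 for the factors and 0.20 for all genes. Their exon CPM summed to 3793 ± 189.9 at 4 weeks and 3961 ± 216 at P5. Fewer cells of a type and less RNA per cell cannot be told apart in such bulk libraries.

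Gfi1b encodes a zinc finger repressor with a SNAG domain, through which it recruits the demethylase Kdm1a and its corepressors. The gene lies on mouse chromosome 2 at 28609450 to 28621982 (GRCm38.p6, minus strand), with 8 exons in the files' model. Its exon level at 4 weeks was 36.0, 29.5, 43.2 and 30.2 CPM in replicates 1 to 4, against 15.5, 12.1, 12.6 and 14.7 CPM at P5. Every 4-week library thus stood above every P5 library, and the highest was 4-week replicate 3, the library with the raised Klf1. These levels rested on 171 to 257 exon reads at 4 weeks and 78 to 114 at P5. The log2 fold change was 1.33 (SE 0.16), a 95% interval of 1.98-fold to 3.21-fold, with an adjusted p of 8.94e-05 by edgeR. Without 4-week replicate 3 it was 1.21, adjusted p 0.000353 by edgeR. In the authors' deposited table its signed fold was 2.52, with a corrected p-value of 3.35e-11.

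Mecom encodes a zinc finger factor made in a long form with a PR domain (Mds1-Evi1) and a short form without it (Evi1), which the gene-level counts do not separate. It spans chromosome 3 from 29951296 to 30509759 (GRCm38.p6, minus strand), with 30 exons in the files' model. Mecom was at 567, 577, 587 and 509 CPM at 4 weeks, against 639.6, 698, 809.8 and 717 CPM at P5. The highest 4-week library lay below the lowest P5 library. Endothelial markers stood the same way: 8 of them summed to 235 to 300.4 CPM at 4 weeks and 328 to 430 CPM at P5, without overlap. Of 7 tested, 3 were lower at 4 weeks by edgeR and 0 higher, beside 7.99% and 8.55% of all genes. Pecam1 (adjusted p 0.0745), Emcn (0.364), Kdr (0.752) and Ramp2 (0.243) did not pass by edgeR. Cdh5 was at 0 to 0.168 CPM at 4 weeks and 5.73 to 19.4 CPM at P5, Ptprb at 3.79 to 4.88 CPM at 4 weeks and 25.0 to 52.9 CPM at P5, and Tek at 84.8 to 110.7 CPM at 4 weeks and 135 to 163 CPM at P5. Their part in the value of Mecom was not tested. The log2 fold change was -0.35 (SE 0.08), a 95% interval of 0.689 to 0.887 of the P5 level, with an adjusted p of 0.0106 by edgeR. In the authors' deposited table the signed fold was -1.28, with a corrected p-value of 0.0353. With Y-linked reads, present or not, as a term in the fit, the edgeR value was -0.34 and no longer passed, with an adjusted p of 0.0635. Among the 6 libraries that had Y-linked reads it was again -0.34, with an adjusted p of 0.0245.

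The promoters of these called genes, 250 bases before to 50 after each start, are given from the RefSeq table of GRCm38.p6, since these are the genes called on exons. Which of the starts is used in these cells was not tested. Of the 9 factors all matched that table, with 15 promoters among them. Capitals mark every match, on either strand, to the motifs of Gata factors (AGATAA), Runx factors (TGTGGT), ETS factors (AGGAAG), E-box proteins (CAGNTG), PAR bZIP factors (TTANGTAA), Meis proteins (TGACAG) and Gfi proteins (AATCAC). Added after the promoters had been read were the core that the last of these contains (AATCA) and a variant of the first (TGATAA).
Gfi1b promoter, chr2:28621933-28622232, minus strand: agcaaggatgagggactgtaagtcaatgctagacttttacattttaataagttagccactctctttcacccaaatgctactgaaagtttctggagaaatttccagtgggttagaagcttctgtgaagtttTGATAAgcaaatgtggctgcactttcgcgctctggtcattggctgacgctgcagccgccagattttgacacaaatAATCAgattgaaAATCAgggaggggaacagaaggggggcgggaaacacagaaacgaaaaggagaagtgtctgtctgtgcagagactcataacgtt
Mecom first promoter, chr3:30509710-30510009, minus strand: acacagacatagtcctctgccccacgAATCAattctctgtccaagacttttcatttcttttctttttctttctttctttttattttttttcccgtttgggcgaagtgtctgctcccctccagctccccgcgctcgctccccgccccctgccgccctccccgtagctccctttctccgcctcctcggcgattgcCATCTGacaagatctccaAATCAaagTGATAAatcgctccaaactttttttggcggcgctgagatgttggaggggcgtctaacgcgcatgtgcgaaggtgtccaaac
Mecom second promoter, chr3:30013155-30013454, minus strand: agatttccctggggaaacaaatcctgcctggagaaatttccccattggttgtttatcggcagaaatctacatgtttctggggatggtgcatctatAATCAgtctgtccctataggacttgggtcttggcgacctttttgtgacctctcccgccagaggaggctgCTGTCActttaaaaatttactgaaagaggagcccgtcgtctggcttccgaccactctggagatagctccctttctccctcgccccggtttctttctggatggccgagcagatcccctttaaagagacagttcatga

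The Gfi1b promoter held a pair of AATCA matches, whose first bases lay at -45 and -33 from the start, and a TGATAA match at -120. AATCA occurs in 37.0% of the 32851 promoters in the table and TGATAA in 9.05%. Both Mecom promoters held AATCA, and the first also held TGATAA at -31 and an E-box match at -57, a motif found in 51.4% of promoters. TGACAG, found in 19.2% of promoters, matched once in the second, on the opposite strand. The full GFI motif AATCAC, found in 10.4% of all promoters, was in neither gene and occurred in both promoters of Runx1. AGATAA, in 11.2% of promoters, occurred in 1 promoter each of Tal1 and Erg, and TTANGTAA, in 2.32%, in no promoter of the 9 factors. TGTGGT, in 16.8% of promoters, occurred in 1 promoter each of Meis1 and Runx1, and AGGAAG, in 35.4%, in 1 each of Runx1 and Erg. These matches describe letters in the windows and are not evidence of binding.

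The remaining stem cell regulators differed less by age. Hlf was at 1360.1, 1104, 1327 and 1219 CPM at 4 weeks, against 1269, 1418, 1460.5 and 1469 CPM at P5. The groups overlapped, although the 3 highest values were all from P5. Its log2 fold change was -0.17, with an interval of 0.786 to 1.01 of the P5 level and an adjusted p of 0.211 by edgeR. Meis1 was at 531, 449, 478 and 518 CPM at 4 weeks, against 416, 469, 428 and 444 CPM at P5. It overlapped through 4-week replicate 2, and its log2 fold change of 0.17 had an unadjusted p of 0.0451 and an adjusted p of 0.157 by edgeR, with an interval of 1.00-fold to 1.26-fold. Prdm16, the PR-domain relative of Mecom, was at 168, 129, 149 and 146 CPM at 4 weeks, against 153, 180.1, 139 and 144 CPM at P5. Those ranges lay almost on each other, and the interval was 0.825 to 1.12 of the P5 level (adjusted p 0.747 by edgeR).

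Among the heptad members, Gata2, Runx1, Erg and Tal1 did not pass the test on exons. Gata2, the zinc finger factor needed for HSC formation, was at 346, 295, 349 and 341 CPM at 4 weeks, against 297, 369.8, 325 and 309.9 CPM at P5. The 4-week libraries lay within the P5 range but for replicate 2, and the interval was 0.899-fold to 1.16-fold (adjusted p 0.846 by edgeR). Runx1, the Runt-domain factor that binds DNA with Cbfb, was at 482, 509, 473 and 471 CPM at 4 weeks, against 419, 427, 509.6 and 486 CPM at P5. Its interval was 0.933-fold to 1.18-fold (adjusted p 0.599). Erg, an ETS factor, was at 280.5, 249, 260.3 and 279 CPM at 4 weeks, against 232, 242, 258 and 243 CPM at P5. Only 4-week replicate 2 fell within the P5 range, and the interval was 0.984-fold to 1.22-fold (adjusted p 0.241). Tal1, a basic helix-loop-helix factor that pairs with E proteins such as Tcf3, was at 209, 206, 233 and 236 CPM at 4 weeks, against 207, 230.3, 197 and 178 CPM at P5. Its ages overlapped widely, with an interval of 0.953-fold to 1.24-fold (adjusted p 0.396).

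On introns 5 of the 9 factors were higher at 4 weeks and none was lower. Reads in introns can come from RNA that still holds intron sequence, but their source was not tested here. The libraries do not mark strand. Gfi1b, Gata2, Tal1, Erg and Hlf were higher by edgeR, beside 8.86% of the 13180 genes tested on intron reads. In either direction the share of all genes was 17.9%, and 9.01% were lower. The median log2 fold change of the 9 factors was 0.29, against 0.012 over all genes. Their summed intron CPM was 19746 ± 478 at 4 weeks and 19658 ± 438 at P5. Mecom averaged 7420.4 intron CPM at 4 weeks and 8008 at P5, and Prdm16 1295 and 1514, which offset the higher sums of Hlf and Erg.

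Gfi1b had the largest difference, with intron levels of 17.1, 19.3, 14.1 and 10.9 CPM at 4 weeks, against 2.17, 0.921, 1.87 and 1.86 CPM at P5. Every 4-week library stood above every P5 library, on 170 to 239 intron reads at 4 weeks and 12 to 27 at P5. The fit gave a log2 fold change of 3.17 (SE 0.30), a 9.00-fold difference, with an adjusted p of 3.95e-05 by edgeR. Gata2 had 46.2, 33.7, 53.2 and 47.1 intron CPM at 4 weeks, against 13.4, 37.9, 21.4 and 19.1 at P5. Replicate 2 was lowest at 4 weeks and highest at P5, which made the ages overlap. The log2 fold change was 0.97 (SE 0.27, adjusted p 0.0264 by edgeR). Tal1 had 76.4, 63.3, 84.7 and 74.5 intron CPM at 4 weeks, against 36.4, 68.0, 42.5 and 49.5 at P5. The overlap again came from replicate 2 of each age, and the log2 fold change was 0.61 (SE 0.18, adjusted p 0.0347 by edgeR).

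Erg and Hlf, which have far more intron reads, were apart at every library. Erg had 1641, 1689, 1664 and 1738 intron CPM at 4 weeks, against 988, 1203, 1437 and 1295 at P5, a log2 difference of 0.45 (SE 0.10, adjusted p 0.0103 by edgeR). With uniquely mapped intron reads alone, the Erg value was 0.33 and did not pass, with an adjusted p of 0.193 by edgeR. Hlf had 1870.7, 1790.3, 1819 and 1839 intron CPM at 4 weeks, against 1414, 1669, 1345 and 1567 at P5, a log2 difference of 0.29 (SE 0.08, adjusted p 0.0277 by edgeR). With Gfi1b, 3 of the 9 factors had 4-week libraries wholly above P5 on introns and none had them wholly below, beside 11.8% and 11.1% of all genes (22.9% in either direction). The intron difference of Hlf passed the test, and its exon difference, of opposite sign, did not.

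The other 4 factors did not pass on introns. Mecom had a log2 difference of -0.11 (adjusted p 0.320). Prdm16 had -0.23 (adjusted p 0.0811), Meis1 0.018 (0.889) and Runx1 0.0048 (0.973), all by edgeR. A GENCODE antisense gene overlaps Mecom, Meis1, Prdm16 and Runx1, and their reads could not be told apart from it without strand. None overlaps Gfi1b, Gata2, Tal1, Erg or Hlf in that annotation. Among the files' own rows, LOC105242443 overlaps Gata2 and Gm33786 overlaps Tal1, with strand not given and at most 2 reads per age, and the sources used here do not say how reads over both were assigned.

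The intron call of Gfi1b held under every alternative tried, and those of Gata2, Tal1, Hlf and Erg did not. Erg passed without each library in turn, with adjusted p-values of 0.00563 to 0.0328 by edgeR. Gata2 and Tal1 passed only without replicate 2 of either age. Without any other single library the Gata2 value was 0.78 to 0.96 (adjusted p 0.0511 to 0.0700) and the Tal1 value 0.48 to 0.61 (adjusted p 0.0678 to 0.0939). Hlf passed without replicate 2 of either age or P5 replicate 4, and without any other library stood at 0.24 to 0.29 (adjusted p 0.0528 to 0.0769). Prdm16, in turn, passed as lower without P5 replicate 1, the library with the lowest intron share (-0.28, adjusted p 0.0387). With Y-linked reads as a term in the fit Gfi1b alone passed, at 3.45, and Erg stood at 0.43 (adjusted p 0.0629), Gata2 at 0.66 (0.182), Tal1 at 0.35 (0.231) and Hlf at 0.18 (0.205), all by edgeR.

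**Figure D2:**
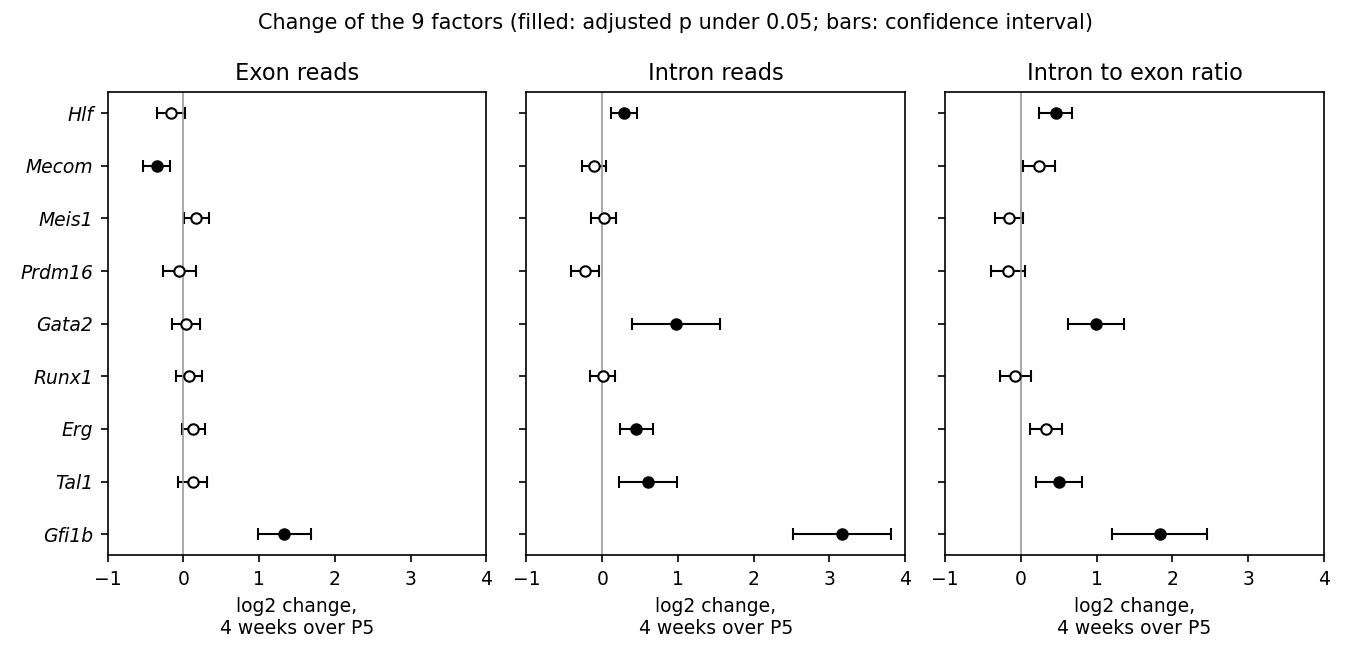
Log2 change of each factor, 4 weeks over P5, on exon reads, intron reads and the intron to exon ratio, with 95% intervals; filled points had an adjusted p under 0.05 by edgeR. On exons only Gfi1b (1.33) and Mecom (-0.35) are filled, and on introns Gfi1b (3.17), Gata2 (0.97), Tal1 (0.61), Erg (0.45) and Hlf (0.29).

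Whether introns and exons changed unequally was tested for each gene in a fit of both read classes, with library as a term. Gfi1b, Gata2, Tal1 and Hlf had a higher intron to exon ratio at 4 weeks, and no factor had a lower one. Those 4 of 9 stand beside 3.32% of the 11399 genes tested (6.38% in either direction, 3.06% lower). The median log2 change of the ratio was 0.33 over the factors and 0.019 over all genes. The ratio is given as intron CPM divided by exon CPM, each scaled within its class.

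For Gfi1b the ratio was 0.475, 0.655, 0.326 and 0.361 at 4 weeks, against 0.140, 0.0760, 0.148 and 0.127 at P5. Introns held 39.8% to 58.3% of its reads at 4 weeks and 13.3% to 24.3% at P5. Its ratio changed by 1.83 on the log2 scale (SE 0.30, adjusted p 0.00149 by edgeR). For Gata2 the ratio was 0.134, 0.114, 0.153 and 0.138 at 4 weeks, against 0.0451, 0.102, 0.0657 and 0.0617 at P5. Although its intron CPM overlapped, its ratio did not, and the log2 change was 0.99 (SE 0.18, adjusted p 0.00279 by edgeR). Hlf had ratios of 1.38, 1.62, 1.37 and 1.51 at 4 weeks, against 1.11, 1.18, 0.921 and 1.07 at P5. These were again separate, with a log2 change of 0.46 (SE 0.10, adjusted p 0.0114 by edgeR). Tal1 had 0.366, 0.308, 0.363 and 0.316 at 4 weeks, against 0.176, 0.295, 0.215 and 0.278 at P5. It too was separate, and its log2 change was 0.50 (SE 0.14, adjusted p 0.0428 by edgeR).

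Erg, with a log2 change of 0.33, just missed the threshold (adjusted p 0.0560 by edgeR), although its 4-week ratios of 5.85 to 6.77 all lay above the P5 ratios of 4.26 to 5.56. Meis1 ran the other way, at 5.52 to 6.09 at 4 weeks and 6.26 to 6.83 at P5, with a log2 change of -0.15 that did not pass (adjusted p 0.321). In all 6 factors had ratios without overlap between ages, 5 of them above P5, beside 13.9% of all genes in either direction, 7.4% above and 6.46% below. Mecom (0.24), Prdm16 (-0.17) and Runx1 (-0.07) overlapped and did not pass. With limma on the log2 ratio per library, Gfi1b alone kept its call, at 1.82 (adjusted p 0.0272), while Gata2 stood at 1.02 (0.0676), Hlf at 0.46 (0.0981) and Tal1 at 0.51 (0.162). By edgeR the ratios of Gfi1b, Gata2 and Hlf passed without each library in turn and among libraries with Y-linked reads. Tal1 passed without P5 replicate 2 or 4, while without any other single library it did not, at 0.35 to 0.55 (adjusted p 0.0554 to 0.123), and among libraries with Y-linked reads it stood at 0.21 (adjusted p 0.384).

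**Figure D3:**
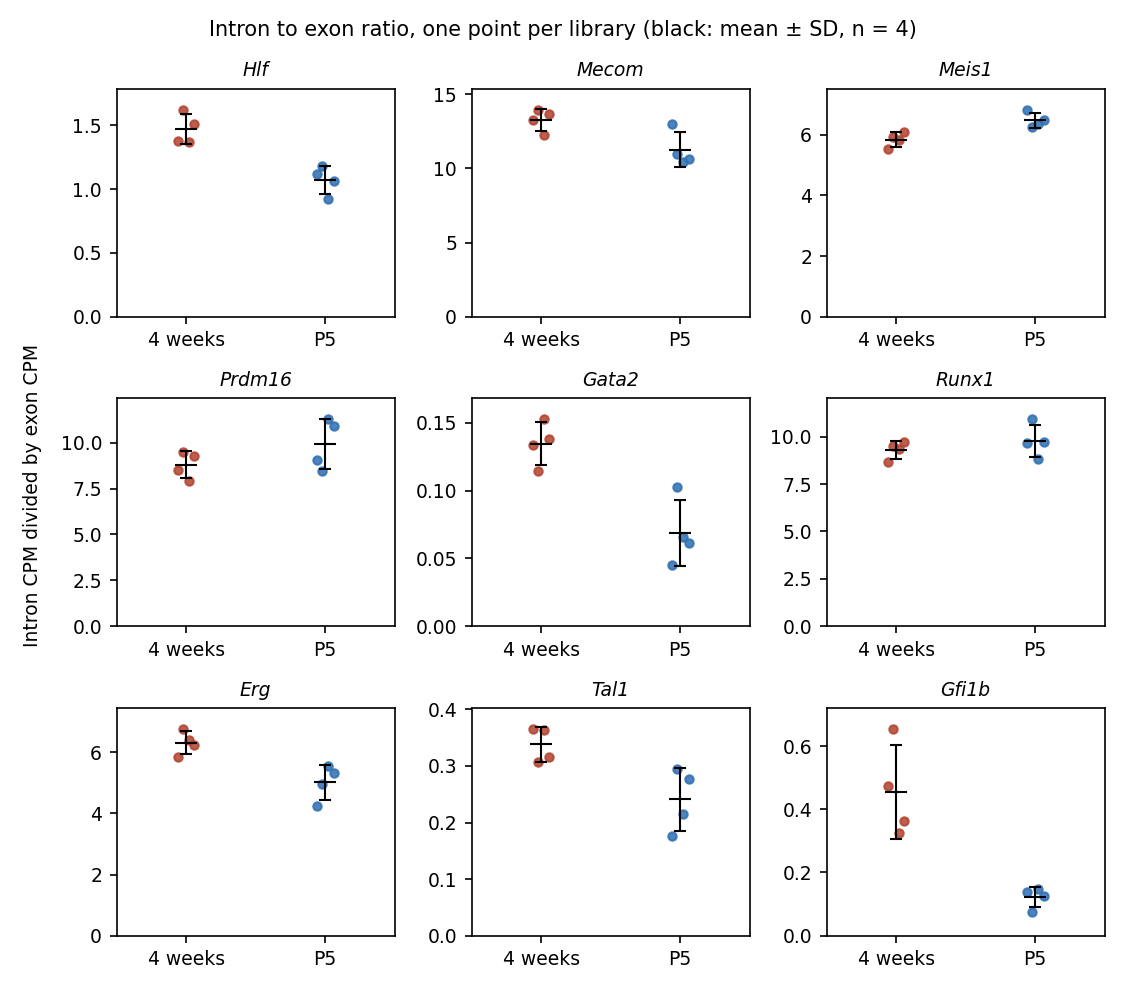
Intron CPM divided by exon CPM for each of the 9 factors, 1 point per library, with means ± SD in black and 4 weeks left of P5; each panel has its own axis from 0. Gfi1b, Gata2, Hlf, Tal1 and Erg lie higher at 4 weeks in all 4 libraries, and Meis1 lower.

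The 3 further heptad proteins were read beside their partners. Lmo2, the LIM-domain bridge that joins Tal1 to Gata factors, was higher at 4 weeks, at 947 ± 45.7 CPM against 655 ± 56.4 CPM at P5 (SD, n = 4 each), a log2 fold change of 0.53 with an adjusted p of 0.000475 by edgeR. Fli1, the ETS relative of Erg, was higher, at 274 ± 22.6 CPM against 220.0 ± 13.3 CPM at P5, a log2 difference of 0.32 (adjusted p 0.0145 by edgeR), which did not pass among libraries with Y-linked reads (0.28, adjusted p 0.115) or without 4-week replicate 4 (0.29, adjusted p 0.0530). Lyl1, the relative of Tal1, had 102 ± 7.69 CPM at 4 weeks and 101 ± 13.0 CPM at P5 and did not pass on exons (adjusted p 0.938 by edgeR). Of the 7 heptad genes, 2 were thus higher on exons, beside 8.55% of all genes, and none lower. On introns 6 of the 7 were higher, beside 8.86% of all genes, all but Runx1, with Lyl1 at 0.59 (adjusted p 0.0496 by edgeR), Lmo2 at 0.81 and Fli1 at 0.38. The ratio itself was called in 2 of the 7, Gata2 and Tal1.

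Of 26 partners and cofactors of the 9 proteins, 25 were tested, 4 were higher, 7 were lower, and their median log2 fold change was -0.0031, beside 8.55% of all genes higher and 7.99% lower. The higher ones included Lmo2, Fli1 and Zfpm1. Zfpm1, the Gata cofactor known as Fog1, rose to 213 ± 18.3 CPM at 4 weeks, against 160.4 ± 6.63 CPM at P5 (log2 0.41, adjusted p 0.00333 by edgeR). The lower ones included the Lmo2-binding scaffold Ldb1 (-0.35) and the Tal1 partner Tcf3 (-0.36), as well as Kdm1a (-0.32), the demethylase recruited by Gfi1b, with Ctbp2, Hdac1, Pbx2 and Id1. With 1 library left out in turn, 3 to 4 partners were higher and 1 to 6 lower, so several lower calls depended on which libraries were in the fit.

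Relatives of the 9 factors by sequence included genes that rose and genes that fell. Of 13 such genes 12 were tested, 5 were higher and 2 lower, with a median log2 fold change of 0.40, beside the same 8.55% and 7.99% of all genes. With 1 library left out in turn, 3 to 6 were higher and 1 to 3 lower, and with Y-linked reads as a term in the fit 3 were higher and 1 lower. Gfi1, the closest relative of Gfi1b, ran opposite to it, at 82.2 ± 13.5 CPM at 4 weeks and 177 ± 15.5 CPM at P5 (log2 -1.11, adjusted p 1.86e-05 by edgeR). Gfi1 and Gfi1b share the SNAG domain and DNA motif, and in mouse progenitors each represses the other's gene. Runx3 and Runx2 were higher at 4 weeks, at 35.6 ± 2.75 against 15.5 ± 3.80 CPM at P5 for Runx3 (log2 1.20) and 239 ± 24.6 against 143 ± 17.6 CPM at P5 for Runx2 (log2 0.74), whereas Runx1 did not pass. Gata1, the erythroid and megakaryocytic Gata factor, was at 6.48, 12.2, 15.6 and 3.05 CPM at 4 weeks, against 0.954, 1.09, 1.94 and 2.12 CPM at P5 (log2 2.60, adjusted p 0.00303 by edgeR). It was most abundant in 4-week replicate 3, and without that library its log2 value was 2.23 (adjusted p 0.0128). Nfil3, a bZIP repressor related to Hlf, was lower (log2 -1.04), and Gata3 was higher (log2 0.63).

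Among 14 lineage factors 10 were tested, 3 were higher and 5 lower, and the median log2 fold change was -0.70, where 8.55% of all genes were higher and 7.99% lower; the same counts were found without each library in turn. Spi1, the myeloid and lymphoid ETS factor PU.1, was lower at 4 weeks, at 52.5 ± 4.44 CPM against 94.3 ± 2.86 CPM at P5 (log2 -0.84, adjusted p 3.26e-05 by edgeR). Irf8 (log2 -1.20), Gfi1, Ikzf1 (-0.30) and Tcf7 were lower too, and Gata1, Zfpm1 and Nfe2 (log2 0.36) were higher. The 3 higher ones are known for red cell and platelet production, and Gfi1 and Irf8 among the lower for granulocytes and monocytes. Markers of such cells moved as follows. Summed myeloid markers gave an exact permutation p of 0.743 (adjusted 0.831), with S100a8 and Mpo in opposite directions, as given above. Summed megakaryocyte markers were at 1125 to 1226 CPM at 4 weeks and 965 to 1235 CPM at P5 (exact permutation p 0.229, adjusted 0.320 over 14 sums and library measures). Summed erythroid markers were lower at 4 weeks, as given above, at an exact two-sided permutation p of 0.0286 (adjusted 0.0667), the smallest this design allows. Their part in the values of Gfi1b and Gata1 was not tested.

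Of 10 other HSC factors 8 were tested, none was higher and 2 were lower, where 8.55% and 7.99% of all genes were, with a median log2 fold change of -0.094. Ikzf2 was lower at 4 weeks, at 310.0 ± 31.7 CPM against 675 ± 80.5 CPM at P5 (log2 -1.12, adjusted p 6.56e-06 by edgeR), and Hhex was lower by 0.59 on the log2 scale (-0.59). Myb, the most abundant for its length, had 785 ± 89.2 CPM at 4 weeks and 761 ± 64.7 CPM at P5 and did not pass. Sox17, a factor of fetal HSCs, had no exon read in any library.

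Genes reported as targets of the 9 proteins in other work went in both directions, 3 higher and 4 lower of 12 tested, with a median of 0.021, where 8.55% of all genes were higher and 7.99% lower. With 1 library left out in turn 2 to 4 were lower, and Flt3, a receptor of multipotent progenitors, was lower only without 4-week replicate 1 or P5 replicate 3. Without any other single library its log2 value was -0.72 to -0.48 (adjusted p 0.0536 to 0.0956). Itga2b, the platelet integrin CD41, rose to 51.3 ± 5.45 CPM at 4 weeks, against 27.1 ± 7.34 CPM at P5 (log2 0.92, adjusted p 0.00204 by edgeR). Hdc, a mast cell and basophil enzyme regulated by Gata2, was lower at 4 weeks, at 0, 0, 1.68 and 0.416 CPM, 13 reads in all, against 5.32 to 9.02 CPM at P5 (log2 -3.64, adjusted p 0.00276 by edgeR). With 1 library left out in turn its log2 value was -5.28, without 4-week replicate 3, to -3.24. Other mast cell and basophil markers were near absent, with Mcpt8, Fcer1a, Ms4a2 and Prss34 at 0 exon reads in all libraries. Cpa3 ran opposite to Hdc, at 0.831 to 1.42 CPM at 4 weeks (27 reads) and 0.141 to 0.808 CPM at P5 (12 reads). Those ranges did not overlap, and Cpa3 was too low to enter the exon test. The lower call of Csf1r rested on P5 replicate 2, the library with the raised myeloid markers: it had 158 CPM, the other P5 libraries 3.53 to 7.92 and the 4-week libraries 3.45 to 3.95, and without it the log2 value was -0.59 (adjusted p 0.314). Csf1r, Flt3 and the single marker genes given here were chosen after their values had been seen.

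**Figure D4:**
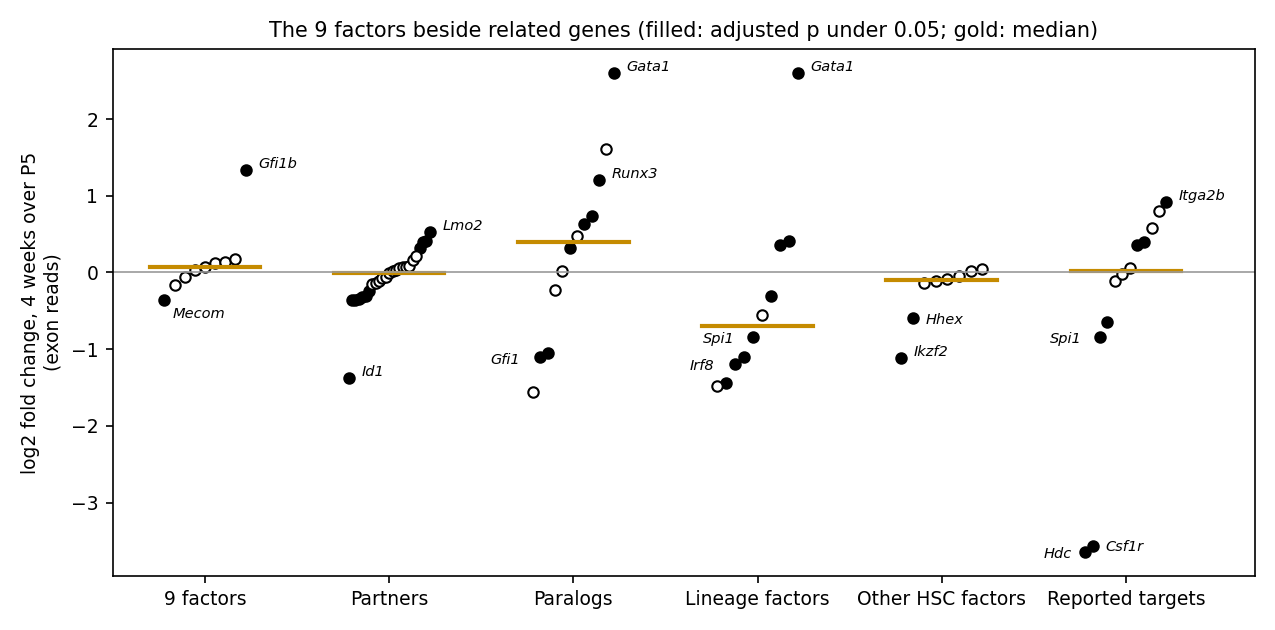
Log2 fold change, 4 weeks over P5, on exon reads for the 9 factors and 5 lists of related genes, sorted within each list; filled points had an adjusted p under 0.05 by edgeR and gold lines are medians. A gene can stand in several lists, as Gata1 and Spi1 do. Medians are 0.071 for the 9 factors, 0.40 for the relatives by sequence and -0.70 for the lineage factors.

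The profiles of the called factors were also set beside those of 8806 genes with a mean log2 CPM of at least 4, by the root mean square difference of log2 CPM, centred for each gene, over the 8 libraries. Nearest to Gfi1b were Nfia, at a difference of 0.154, and Nod1, at 0.178, where the median gene differed by 0.699. Nfia encodes a CCAAT-box-binding factor of the NFI family and Nod1 a sensor of bacterial peptidoglycan. Nfia was at 135, 132, 169 and 121 CPM at 4 weeks, against 78.0, 60.0, 59.5 and 57.1 CPM at P5, and like Gfi1b it was highest in 4-week replicate 3 and, at P5, in replicate 1. Nearest to Mecom were Pea15a, at 0.0572, and Ikzf1, at 0.0591, where the median gene differed by 0.270. Ikzf1, a zinc finger factor of lymphoid development, was at 296, 292, 306 and 284 CPM at 4 weeks, against 339, 355, 388 and 372 CPM at P5. Both it and Mecom had their highest value in P5 replicate 3 and their lowest in 4-week replicate 4. The measure describes likeness over these libraries only.

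**Figure D5:**
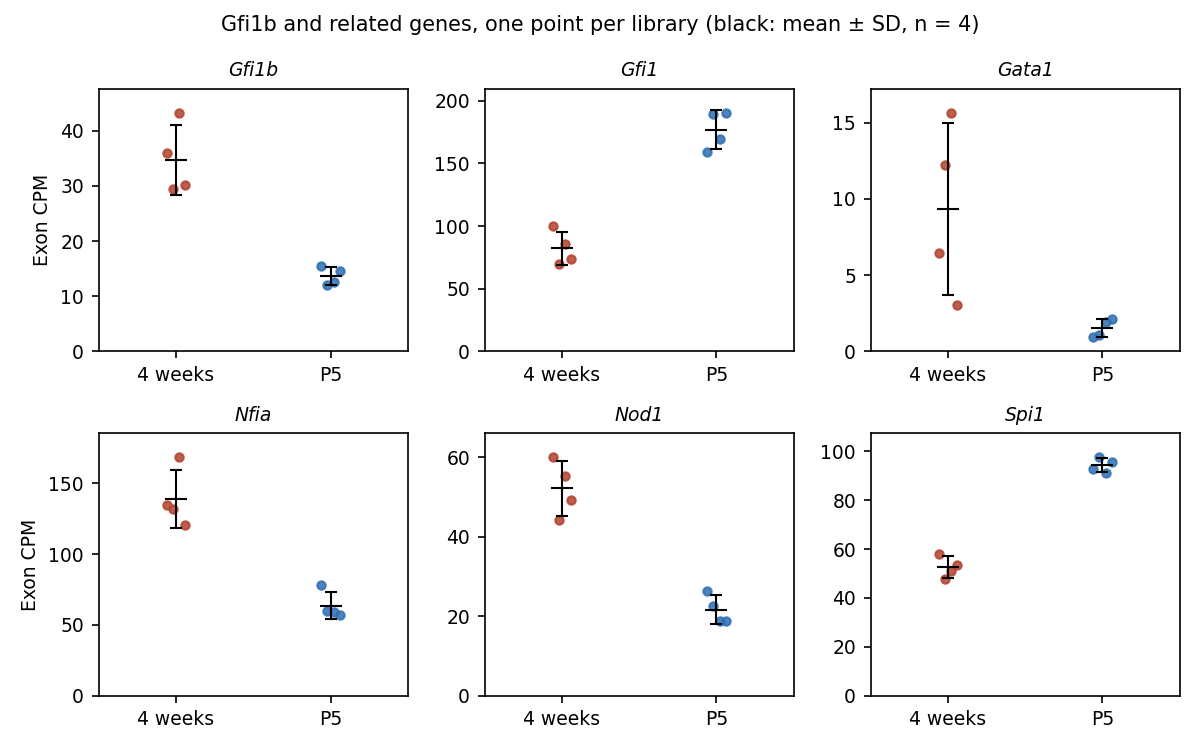
Exon CPM of Gfi1b and of related genes, 1 point per library, with means ± SD in black and 4 weeks left of P5; each panel has its own axis from 0. Gfi1b, Gata1, Nfia and Nod1 lie above P5 in all 4 libraries at 4 weeks, and Gfi1 and Spi1 below.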

How the data were processed

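The authors deposited, per the file headers, raw counts of total and uniquely mapped reads over exons, introns and exon junctions for 48835 gene rows per library, and the file of P5 replicate 1 also holds their own test of age, with deposited p-values and signed fold scores. Reads were placed on mm10, per the submitters' processing notes, while which aligner and counter made the tables is not given in the sources used here. Per the labels' protocols Nextera XT libraries were made, in which strand is lost. Reads carry no molecular identifiers.

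The labelled age set each library's group and its title the replicate number, though the headers of 4-week replicates 1 and 2 carry the library numbers 6 and 5. Of the rows, 23457 had an mRNA model, and 969 genes listed as copies were summed. In 1 file 24 gene names had become dates and were restored. Total exon reads entered edgeR 4.0.16 under R 4.3.3 (TMM, filterByExpr, quasi-likelihood fits, age alone), over 12235 genes with 99.8% of exon reads. Intron reads were tested in the same way over 13180 genes, and the intron to exon ratio over 11399. Each p was adjusted by Benjamini-Hochberg over all genes of its fit, at 0.05, and standard errors, derived from the F statistic, are approximate. For summed markers and library measures, exact permutation tests, two-sided, were used. On simulated data the fits recovered 81% of 2-fold and 98% of 4-fold changes on exons, and 59% of 2-fold and 93% of 4-fold changes of the ratio. Of the genes called there, 6.28% on exons and 3.80% for the ratio had not been changed. Smaller changes, such as that of Mecom, were not simulated. Replicates of 1 age differed beyond sampling noise, with a chi-square per gene of at least 4.38. Same-numbered libraries did not deviate together (correlations of -0.24 to -0.031).

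The 9 factors and all lists were chosen with earlier results of these data known. Named beside the 9 were, from each list, up to 4 called genes by smallest p and the gene with most exon reads per kb, the other heptad factors, and the 2 genes most like each called factor. A few genes under this rule are not reported here. Alternatives used DESeq2 1.42.0, limma 3.58.1, other scalings, filters and read classes, the replicate block, Y-linked reads, and 1 library left out. Python 3.11.15 and matplotlib 3.10.9 served for summaries and figures. Positions and promoters are RefSeq's on GRCm38.p6, and overlaps are from GENCODE.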

Additional observations from a re-analysis of the deposited data

Results flagged for a closer look

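In 94 groups of 4 libraries checked for a library far from the other 3, 5 were flagged, where chance flags about 1 in 20. The exon level of Gata2 in 4-week replicate 2 was 295 CPM, the lowest at that age. In the same library Lyl1 was lowest, at 90.5 CPM, and so was Runx2, at 202 CPM. At P5, Runx3 was highest in replicate 3, at 21.2 CPM, and Nfia in replicate 1, at 78.0 CPM. None of these libraries decided the call of a factor on exon reads: with 1 library left out in turn, Gfi1b stayed higher and Mecom lower each time.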

How the results depend on the processing

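On exon reads the calls of Gfi1b and Mecom held under other scalings, filters, tools, copies kept apart, uniquely mapped reads and 1 library left out in turn (1.21 to 1.40 for Gfi1b and -0.41 to -0.29 for Mecom). Genes higher numbered 1046 and ranged from 795 to 1069 with 1 library left out, and genes lower numbered 977 and ranged from 702 to 985. With junction reads 462 genes were higher and 400 lower, with Gata2 at -0.26, Prdm16 at 0.022 and Lyl1 at -0.052. With exon plus intron reads 2 factors were higher and 0 lower, and Hlf stood at 0.18; with intron reads 5 were higher and 0 lower, and Hlf stood at 0.29. With Y-linked reads as a covariate 608 genes were higher and 628 lower on exons and 0 factors lower, with Gata2 at -0.030 and Lyl1 at -0.021. Among libraries with such reads the counts were 638 and 619, with Gata2 at -0.030 and Lyl1 at -0.021. Leaving out 1 library turned the sign of Gata2 (-0.0091 to 0.099), Prdm16 (-0.12 to 0.025), Lyl1 (-0.067 to 0.078) and Myb (-0.012 to 0.0995), none of which passed. Alternatives of the intron fit were chosen after seeing the data, as were those of the gene lists and the promoter motifs AATCA and TGATAA. There the covariate left 607 genes higher and 674 lower and 1 factor higher, with Meis1 at -0.015 and Runx1 at -0.061. Libraries with Y-linked reads gave 618 and 699 genes and 2 factors higher, with Meis1 at -0.025 and Runx1 at -0.071. Limma-voom called 1 factor lower, Prdm16. Uniquely mapped reads put Meis1 at -0.033, and DESeq2 and its size factors put Runx1 at -0.0047. With 1 library left out, 2 to 5 factors were higher and 0 to 1 lower on introns, among 821 to 1040 genes higher, with Meis1 at -0.026 to 0.056 and Runx1 at -0.051 to 0.041. For the ratio, limma called 111 genes higher, 86 lower and 1 factor higher, libraries with Y-linked reads gave 206 genes higher, and leaving out 1 library gave 210 to 316 genes higher, 174 to 398 lower and 3 to 4 factors higher. The level of Erg per kb was 2.24 with uniquely mapped reads. As a paired analysis, the replicate block, whose shared numbers are not said in the labels to mark pairs, gave 723 genes higher and 577 lower on exons with the calls of Gfi1b and Mecom unchanged, and 3 factors higher on introns, Tal1 and Hlf no longer passing. Where a count differed, the cause was not tested. The order of levels with RefSeq lengths was not run, since that table gives gene spans. Depth limits the intron values of Gfi1b, at 12 to 27 reads in P5 libraries.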

Other observations

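Outside the 9 factors, some listed genes also had a called change in the intron to exon ratio. Nfe2, a factor of platelet and globin gene expression, was higher at 4 weeks on exons (log2 0.36) and more so on introns (log2 1.65), with a change of the ratio of 1.30 (adjusted p 0.000336 by edgeR). Hoxa9, a homeodomain factor that works with Meis1, did not pass on exons (log2 0.17, adjusted p 0.402), while its intron value was 1.25 (adjusted p 0.0190) and its ratio changed by 1.08 (adjusted p 0.00492). Gfi1 and Spi1 were lower at 4 weeks on exons and did not pass on introns, at -0.38 (adjusted p 0.287) and -0.14 (adjusted p 0.535), and their ratios changed by 0.70 (adjusted p 0.00909) and 0.72 (adjusted p 0.00607). Foxo3 and Bcl11a, in the list of other HSC factors, had ratio changes of 0.42 (adjusted p 0.0105) and 0.47 (adjusted p 0.0106). Foxo3, Bcl11a and Hoxa9 were chosen after their values had been seen, and so were the ratio values of Nfe2, Gfi1 and Spi1.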
